A study of Homo sapiens with 7 samples.

Results

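The genes of the ATF4 amino-acid response and of the unfolded protein response were examined in ACHN cells, an established human renal carcinoma line, with and without forced expression of the long noncoding RNA HOTAIR. The set held 42 genes, taken by name as 52 of the 42405 probes on a SurePrint G3 array, and 41 of them had a probe bright enough to test. Cells carried either the empty pBabe-hygro retroviral vector (ACHN-EV, 4 arrays, EV 1 to EV 4) or the same vector with HOTAIR cDNA (ACHN-HOTAIR, 3 arrays, HOTAIR 1 to HOTAIR 3), and both lines had passed through virus from Plat-A packaging cells and hygromycin selection. The methods name no clones, and nothing in the labels says that the arrays of a line came from separate cultures, so the p-values measure only the spread between these arrays. All 7 arrays lay on 1 slide, with the EV arrays in the first row and the HOTAIR arrays in the second, so slide row and vector cannot be told apart.

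Cells that run short of amino acids, or whose endoplasmic reticulum (ER) fills with unfolded protein, phosphorylate the translation factor eIF2α. The kinase GCN2 (gene EIF2AK4) senses uncharged tRNA and PERK (EIF2AK3) senses unfolded protein. Phosphorylated eIF2α slows translation in general but favours that of ATF4, a transcription factor that induces amino acid synthesis and uptake, tRNA charging and, under lasting stress, DDIT3 (CHOP). The IRE1 and ATF6 arms of the unfolded protein response act beside it, through splicing of XBP1 mRNA and cleavage of ATF6, and raise ER chaperones and degradation factors. NRF2, the regulator of the oxidative stress response, shares the cystine transporter SLC7A11 with ATF4. A probe intensity reports mRNA abundance in the bulk of the cells, where fewer expressing cells and less RNA per cell cannot be told apart, and neither phosphorylation, cleavage nor translation.

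The labels were checked on the transduced gene. All values are log2 intensities from which the 75th percentile of the array was taken off. HOTAIR itself lay between -7.07 and -6.29 on the EV arrays, where it did not rise clearly over background, and between -3.24 and -2.58 on the HOTAIR arrays. With the software's background subtraction it was at least 9.32-fold higher in ACHN-HOTAIR, a bound set by the faintest signals the arrays could measure. Real-time PCR in the paper gave a smaller increase. IGFBP2, a secreted binding protein of insulin-like growth factors, read -4.22, -4.03, -4.24 and -4.11 on EV 1 to EV 4 and -1.73, -1.51 and -2.11 on HOTAIR 1 to HOTAIR 3, a difference of 2.37 (SE 0.16, limma adjusted p = 0.00162). Both probes separated the groups completely. The paper picked IGFBP2 among the genes most strongly raised in its microarray data, so its separation is no independent check. With normexp background correction the difference was 1.22 for IGFBP2 and 1.06 for HOTAIR, and with the replicate number as a block neither was called (limma adjusted p = 0.127 and 0.0772). In that fit EV 4 had no partner and added nothing to the difference, and fewer degrees of freedom were left. Of the renal epithelial markers, KRT8, KRT18, KRT7, EPCAM, CDH2, PAX8, PAX2 and LHX1 had a probe well above background on all 7 arrays and CA9 and CDH1 had none on any array. The probes named KRT8 and KRT18 are annotated on other chromosomes than these genes. CD3E, COL1A1, COL3A1, DCN and PDGFRB, which mark T cells, fibroblasts and pericytes, reached this mark on no array, PTPRC and PECAM1 were so on at most 3 arrays and 1 array with any probe, CDH5 on 4 arrays, and the monocyte marker CD14 on all 7 with a difference of 0.12 (limma adjusted p = 0.993).

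A pair of arrays stood apart before any group was compared. On the leading principal component of the deviations from the group means, which held 59.1% of their variance, EV 2 scored 66.9 and HOTAIR 3 scored 31.7, while the other 5 arrays lay between -27.1 and -12.3. Over the tested probes the deviations of EV 2 and HOTAIR 3 from the means of their groups correlated at 0.619, a description over probes that share these arrays. The values of the main genes are therefore given on every array, and CANX, DDIT3, SLC7A11 and the medians of the main lists are given without this pair as well.

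No member passed the test between ACHN-HOTAIR and ACHN-EV. With limma and Benjamini-Hochberg adjustment over all 20419 tested probes, 34 probes (0.167%) were called at an adjusted p of 0.05, 0.132% as higher and 0.0343% as lower in ACHN-HOTAIR, and 0 of the 41 tested members were among them. At an unadjusted p of 0.05, 1194 probes (5.85%) were below the limit and so were 2 members, PHGDH in the direction of ACHN-HOTAIR (3.56% of probes) and ATF3 in that of ACHN-EV (2.29% of probes). This count of members was 4 without EV 2, 0 without HOTAIR 1 or HOTAIR 2, and 1 without any other single array. The Mann-Whitney U test called 0 probes, since 4 against 3 arrays cannot give a p under 0.0571. The arrays of the groups did not overlap for 7.70% of the tested probes, and for 3 members, ASNS, PHGDH and GARS, which were all higher in ACHN-HOTAIR (4.20% of probes in that direction).

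The absence of a call came with narrow intervals. The 95% interval of the difference lay within a 2-fold change in either direction, which is 1 on the log2 scale, for 40 of the 41 members, beside 87.0% of all tested probes. For 24 members it lay within 0.5 on that scale, beside 44.5% of all tested probes. The median absolute difference was 0.08 over the members and 0.13 over all tested genes, and the smallest absolute difference among the 34 called probes was 0.83. Of the members, 17 differed upward and 24 downward, where 52.8% of all tested probes differed upward. Their median difference of -0.02 changed sign under 6 of 20 alternative settings, within a range of -0.04 to 0.03.

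**Figure D1:**
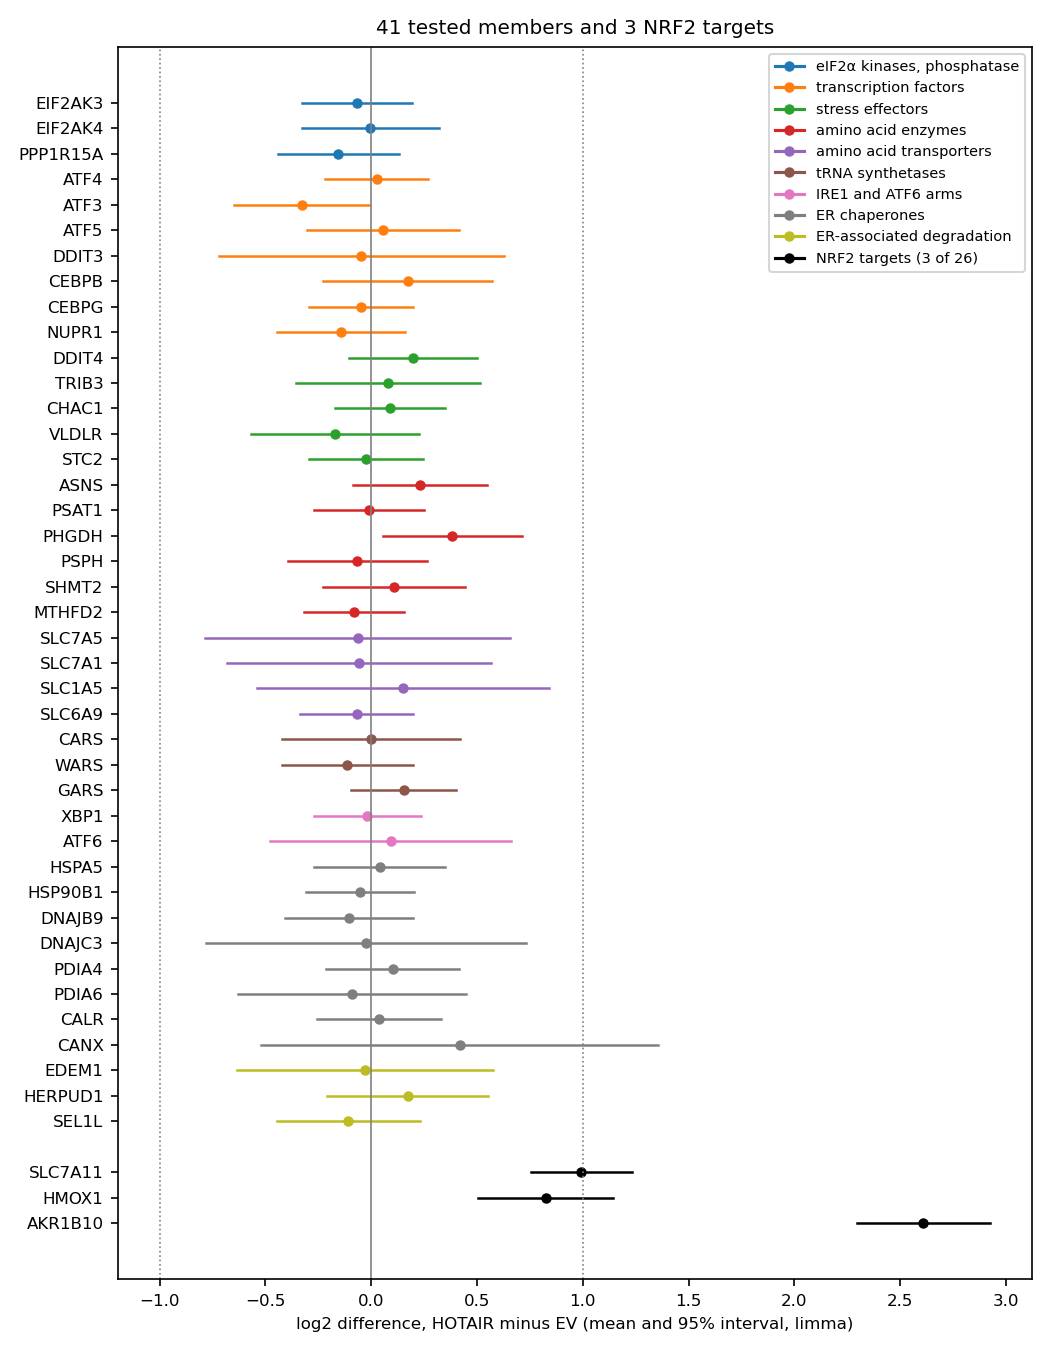
Log2 difference between ACHN-HOTAIR and ACHN-EV for the 41 tested members, coloured by role, and for 3 NRF2 targets at the bottom. Points are means of 3 HOTAIR minus means of 4 EV arrays, lines are 95% intervals from limma, and dotted lines mark a 2-fold change. The interval of CANX alone among the members reaches past the dotted lines, to 1.36, and that of AKR1B10 lies wholly beyond them.

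The kinases and the phosphatase subunit that set eIF2α phosphorylation differed little. EIF2AK3 (PERK) read between -2.01 and -1.70 on the EV arrays and between -1.95 and -1.90 on the HOTAIR arrays, a difference of -0.07 (95% interval -0.33 to 0.19). EIF2AK4 (GCN2) read 1.71, 2.15, 1.76 and 1.77 on the EV arrays and 1.84, 1.74 and 1.94 on the HOTAIR arrays, so that EV 2 was the highest of the 7 and the means differed by less than 0.01. PPP1R15A (GADD34), which directs a phosphatase to eIF2α and is itself a target of this pathway, read 0.30, 0.61, 0.38 and 0.53 against 0.45, 0.25 and 0.21. Its difference of -0.16 (-0.44 to 0.13) was the largest of these 3 genes and the groups overlapped.

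ATF4 mRNA was level across all arrays. The ATF4 probe, at chr22:39918577-39918636 on the plus strand of hg19, read 6.01, 6.04, 6.05 and 6.00 on EV 1 to EV 4 and 5.90, 6.13 and 6.12 on HOTAIR 1 to HOTAIR 3. The means were 6.02 ± 0.02 (SD, n = 4) and 6.05 ± 0.13 (SD, n = 3), and the 95% interval of their difference ran from -0.22 to 0.27. The HOTAIR arrays lay on both sides of all EV arrays. DDIT3 (CHOP), which promotes cell death under lasting ER stress, read 0.24, -0.87, 0.25 and 0.24 on the EV arrays and -0.07, 0.06 and -0.24 on the HOTAIR arrays. EV 1, EV 3 and EV 4 lay within 0.02 of each other and above every HOTAIR array, and EV 2 lay below all others, so the difference of -0.05 had an interval of -0.72 to 0.63. It was -0.33 without EV 2 and -0.25 without EV 2 and HOTAIR 3, and neither passed the test (limma adjusted p = 0.573 and 0.552).

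ATF3, a repressor and activator induced by many stresses, had the lowest difference of all members. Its brightest probe, at chr1:212793856-212793915, read 3.62, 3.17, 3.49 and 3.62 on the EV arrays and 3.21, 3.10 and 3.14 on the HOTAIR arrays. The difference was -0.33 (SE 0.14, interval -0.65 to -0.01), with an unadjusted limma p of 0.0454, an adjusted p of 0.836 and an exact two-sided permutation p of 0.0857 over the 35 splits of the arrays. EV 2 lay inside the HOTAIR range and the other EV arrays above it. The probes of ATF3 did not share a direction, since the other 3 tested probes differed by -0.19, 0.06 and -0.25 and the mean of all tested probes by -0.18. CEBPB, a partner of ATF4 on DNA, had the largest positive difference of the 7 transcription factors, with 2.11, 2.72, 2.12 and 2.19 against 2.41, 2.40 and 2.57. Its difference of 0.17 (-0.23 to 0.57) did not pass the test, and EV 2 was again outside the range of all other arrays. Without EV 2 the CEBPB difference was 0.32, and it did not pass the test either. ATF5, CEBPG and NUPR1 differed by 0.06, -0.05 and -0.14, each with overlapping groups.

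Among the stress effectors, DDIT4 and VLDLR marked the ends of the range. DDIT4 (REDD1), an inhibitor of mTORC1, read 2.50, 2.05, 2.32 and 2.18 on the EV arrays and 2.45, 2.45 and 2.48 on the HOTAIR arrays, a difference of 0.20 (-0.10 to 0.50). VLDLR, a lipoprotein receptor, read -0.97, -0.33, -0.81 and -0.84 against -0.92, -1.05 and -0.76, a difference of -0.17 (-0.57 to 0.23). Without EV 2 the difference was 0.13 for DDIT4 and -0.04 for VLDLR. The groups overlapped for both genes. TRIB3, a pseudokinase that restrains ATF4, differed by 0.08 (-0.36 to 0.52). CHAC1, which degrades glutathione and is among the most inducible ATF4 targets, differed by 0.09 (-0.17 to 0.35) on its tested probe, while a second probe stayed near background on every array. STC2, a secreted glycoprotein, differed by -0.02 (-0.30 to 0.25).

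The enzymes of serine, glycine and asparagine synthesis held 2 of the 3 members whose groups did not overlap. PHGDH, the first enzyme of serine synthesis, read 2.16, 1.87, 2.18 and 2.33 on the EV arrays and 2.64, 2.56 and 2.36 on the HOTAIR arrays, at a probe on chr1:120285529-120285588. It was 1.30-fold higher in ACHN-HOTAIR (log2 0.38, SE 0.14, interval 0.05 to 0.71), with an unadjusted limma p of 0.0278, an adjusted p of 0.753 and an exact permutation p of 0.0571. The groups did not overlap, and the gap between HOTAIR 3 and EV 4 was narrow. ASNS, asparagine synthetase and a standard readout of GCN2 and ATF4, read 4.11, 3.77, 4.18 and 4.23 against 4.32, 4.24 and 4.34, at chr7:97481461-97481520 on the minus strand. Its difference was 0.23 (-0.09 to 0.55, limma adjusted p = 0.942), and here too EV 4 almost met the lowest HOTAIR array. Without EV 2 the ASNS difference was 0.13.

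The other enzymes of the same routes did not differ in a shared direction. PSAT1 and PSPH, the enzymes that follow PHGDH in serine synthesis, differed by -0.01 (-0.27 to 0.25) and -0.07 (-0.39 to 0.26). SHMT2, the mitochondrial enzyme that makes glycine from serine, differed by 0.11 (-0.23 to 0.45). MTHFD2, which follows it in the mitochondrial folate route, read 3.34, 3.34, 3.43 and 3.33 against 3.16, 3.36 and 3.32, a difference of -0.08 (-0.32 to 0.16). Of the 6 enzymes, 3 differed upward and 3 downward, and the median was 0.05.

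**Figure D2:**
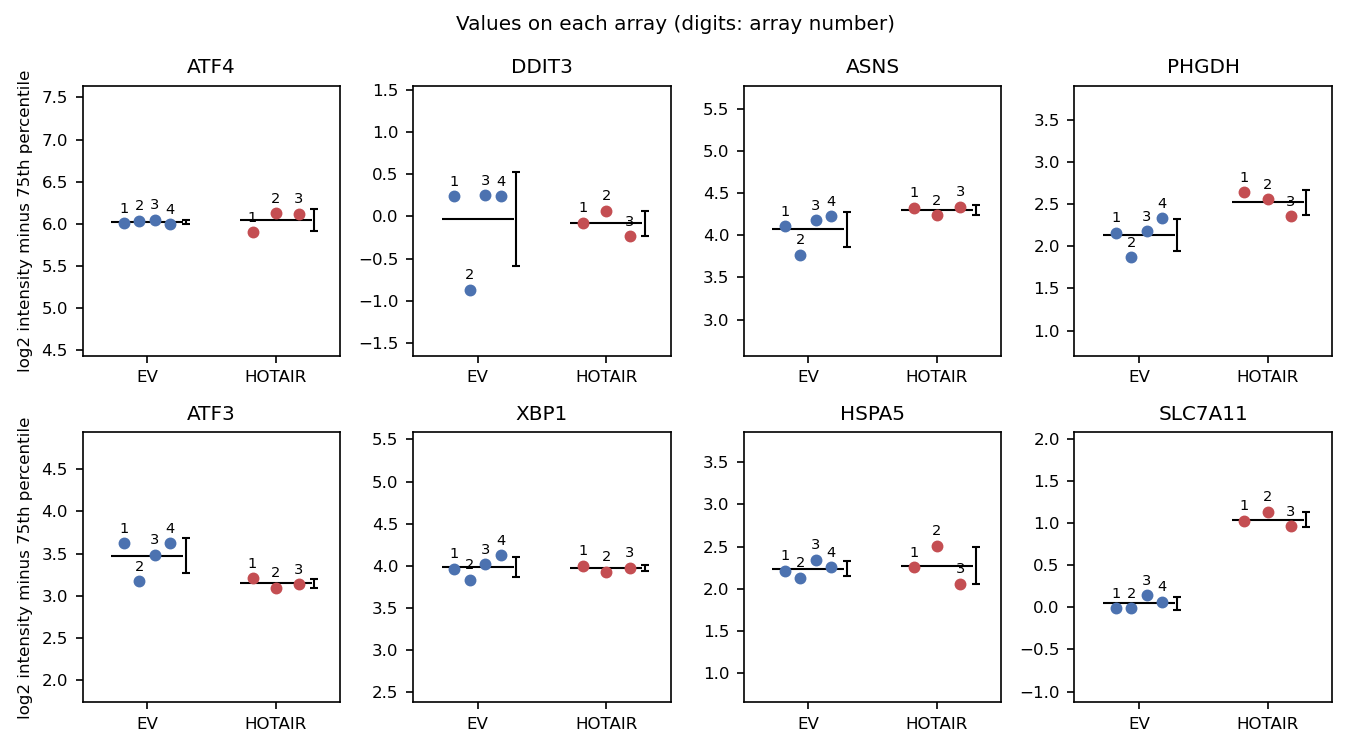
Values of 7 members and of SLC7A11 on each array, as log2 intensity minus the array's 75th percentile. Points are arrays with their numbers, horizontal bars are group means, vertical bars are SDs, and every panel spans the same range on the log2 scale. SLC7A11 separates the groups by 0.99, the panel of ATF4 itself is level, and EV 2 lies far below the other EV arrays for DDIT3.

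The amino acid transporters varied more between arrays of a group than between the groups. SLC7A5 (LAT1), which imports leucine and other large neutral amino acids, read 2.58, 3.90, 2.85 and 3.10 on the EV arrays and 2.84, 2.93 and 3.37 on the HOTAIR arrays. SLC7A1 (CAT1), the arginine and lysine importer, read 1.05, 2.01, 1.12 and 1.19 against 1.11, 1.08 and 1.67. SLC1A5 (ASCT2), the glutamine transporter, read 0.49, -0.68, 0.29 and 0.39 against 0.53, 0.28 and -0.0023. EV 2 was the highest array for the first 2 transporters and the lowest for SLC1A5, and HOTAIR 3 was the highest or lowest of its own group in the same direction. The differences between the groups were -0.06, -0.06 and 0.15, with intervals that all reached beyond 0.5. Without EV 2 they were 0.20, 0.17 and -0.12, so each direction rested on that array. SLC6A9, a glycine transporter, read -2.39, -2.42, -2.62 and -2.55 against -2.62, -2.65 and -2.42, a difference of -0.07 (-0.34 to 0.20).

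The tRNA synthetases, which load amino acids onto tRNA and rise with ATF4, likewise had no common direction. GARS (now GARS1, glycine) read 1.77, 1.58, 1.85 and 1.72 on the EV arrays and 1.94, 1.87 and 1.85 on the HOTAIR arrays. The groups touched at EV 3 and HOTAIR 3 without overlap, and the difference was 0.15 (-0.09 to 0.40, limma adjusted p = 0.971). WARS (WARS1, tryptophan) read 1.92, 2.38, 2.03 and 2.18 against 1.99, 1.98 and 2.08, a difference of -0.11 (-0.42 to 0.20). CARS (CARS1, cysteine) differed by less than 0.01 between the means (-0.42 to 0.42).

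No tested gene of the IRE1 and ATF6 arms passed the test. XBP1 read 3.97, 3.84, 4.02 and 4.13 on the EV arrays and 4.00, 3.93 and 3.98 on the HOTAIR arrays, at chr22:29190733-29190792. Its means of 3.99 ± 0.12 (SD, n = 4) and 3.97 ± 0.04 (SD, n = 3) differed by -0.02 (-0.27 to 0.23), and the HOTAIR arrays lay inside the EV range. The level of a single probe does not tell spliced from unspliced XBP1. ATF6 read 1.16, 2.05, 1.21 and 1.62 against 1.45, 1.44 and 1.91, a difference of 0.09 (-0.48 to 0.66) with the highest values on EV 2 and HOTAIR 3. The ATF6 difference was 0.27 without EV 2 and -0.06 without HOTAIR 3. ERN1, which encodes IRE1α, stayed near background on all 7 arrays and was not tested.

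The ER chaperones were measured at 8 genes, and 4 differed upward and 4 downward with a median of 0.01. HSPA5 (BiP), the chaperone whose induction is the usual sign of ER stress, read 2.21, 2.13, 2.34 and 2.26 on the EV arrays and 2.26, 2.51 and 2.06 on the HOTAIR arrays, at chr9:127997149-127997208. HOTAIR 2 was the highest and HOTAIR 3 the lowest of the 7, and the difference of 0.04 had an interval of -0.27 to 0.35. DNAJB9, a co-chaperone of BiP and an XBP1 target, read 1.54, 1.23, 1.45 and 1.58 against 1.50, 1.31 and 1.22, a difference of -0.10 (-0.41 to 0.20). HSP90B1 (GRP94), PDIA4, PDIA6 and CALR differed by -0.05, 0.10, -0.09 and 0.04. DNAJC3 (p58IPK), an inhibitor of PERK, differed by -0.03, while its EV arrays spread from -0.04 on EV 2 to 1.23 on EV 1.

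CANX (calnexin), which holds glycoproteins in the ER until they fold, had the largest difference of all members and also the widest interval. Its brighter probe, at chr5:179137006-179137065, read 0.90, -0.31, 0.86 and 0.89 on the EV arrays and 1.45, 1.35 and 0.22 on the HOTAIR arrays. The difference was 0.42 (SE 0.40, interval -0.52 to 1.36). A second tested CANX probe, 21052 bases downstream, differed by -0.07, so the probes of this gene did not share a direction. EV 2 and HOTAIR 3 were the low arrays of both groups on the brighter probe. Without HOTAIR 3 its difference was 0.81, without EV 2 it was 0.12, and without both it was 0.51.

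ER-associated degradation returns misfolded proteins to the cytosol. HERPUD1, a scaffold of this machinery, read 4.68, 4.21, 4.73 and 4.67 on the EV arrays and 4.74, 4.92 and 4.57 on the HOTAIR arrays, a difference of 0.17 (-0.21 to 0.55). The HERPUD1 difference was 0.05 without EV 2. SEL1L, the adaptor of the ubiquitin ligase HRD1, read -0.46, -0.81, -0.79 and -0.36 against -0.70, -0.64 and -0.79, a difference of -0.11 (-0.45 to 0.23). Both groups overlapped for each gene. EDEM1, a lectin that picks glycoproteins for degradation, differed by -0.03 (-0.64 to 0.57).

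Genes of the same pathways outside the 42 were read from lists by role, and 1 of 61 tested genes was called. Of 25 tested further ATF4 targets, SLC7A11 was called (0.132% of all probes in that direction), and the groups did not overlap for SLC7A11 and CBS (4.20% of all probes in that direction). CBS, like DNAJC10 of the unfolded protein response, was chosen after its values were seen. CBS, cystathionine beta-synthase of the route from methionine to cysteine, read 3.32, 3.01, 3.40 and 3.50 on the EV arrays and 3.59, 3.78 and 3.72 on the HOTAIR arrays. Its difference of 0.39 (0.06 to 0.72) had an unadjusted limma p of 0.0259 (3.56% of all probes in that direction) and an adjusted p of 0.739. The median of the list was 0.10 with SLC7A11 and 0.09 without it, beside 0.01 over all tested genes. It fell to -0.01 without EV 2 and to -0.02 without HOTAIR 1. PCK2, the mitochondrial enzyme that makes phosphoenolpyruvate, had the next positive difference after SLC7A11 at 0.44 (-0.26 to 1.13), with EV 2 at -2.54 and the other EV arrays between -1.63 and -1.46. Without EV 2 PCK2 differed by 0.19, so its place in the list rested on that array. XPOT, the exporter of tRNA, and MTHFD1L, a mitochondrial folate enzyme, had the largest negative differences at -0.23 (-0.92 to 0.46) and -0.18 (-0.58 to 0.22). XPOT differed by 0.03 without EV 2. For MTHFD1L another probe could become the brightest when an array was left out, so no such value is given. The other tested probes of MTHFD1L differed by -0.02 and -0.06. The probe that stands for XPOT is annotated on another chromosome than the gene, as is that of PDIA3 among the further genes of the unfolded protein response.

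Beside 52.4% of all tested genes, 2 of 11 tested genes of the eIF2α pathway differed upward and 9 downward. Among these 11, 0 were called by limma, and the median was -0.06. An unadjusted p under 0.05 was found for 1 of them, EIF2S1, which encodes eIF2α itself and read 0.73, 0.55, 0.56 and 0.67 on the EV arrays and 0.19, 0.50 and 0.23 on the HOTAIR arrays. The groups did not overlap (3.50% of all tested probes in that direction), and the difference was -0.32 (-0.60 to -0.04, limma adjusted p = 0.764, exact permutation p = 0.0286, the smallest that 35 splits can give). EIF2AK1, a kinase of eIF2α that senses heme, differed by -0.20 (-0.99 to 0.59) with 3.74 on EV 2 and 2.35 to 2.80 on the other EV arrays. EIF2B5 and EIF2AK2, a subunit of the exchange factor for eIF2 and the kinase that senses double-stranded RNA, had the largest positive differences at 0.13 (-0.43 to 0.69) and 0.11 (-0.16 to 0.38). Without EV 2, EIF2AK1 differed by 0.10 and EIF2B5 by -0.08, so both directions rested on that array.

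Among 25 tested further genes of the unfolded protein response, 0 were called by limma and 1 had an unadjusted p under 0.05. DERL3, a channel component of ER-associated degradation, read 1.01, 0.64, 0.90 and 1.05 on the EV arrays and 1.47, 1.10 and 1.23 on the HOTAIR arrays, a difference of 0.37 (0.03 to 0.71, limma adjusted p = 0.788). Its groups did not overlap (4.20% of all probes in that direction). The groups did not overlap either for DNAJC10, an ER reductase, which read 2.69, 2.71, 2.78 and 2.72 against 2.46, 2.60 and 2.67 (3.50% of all probes in that direction). Its difference was -0.15 (-0.38 to 0.09, limma adjusted p = 0.971, exact permutation p = 0.0286), and its second probe differed by -0.02 with overlapping groups. SDF2L1, an ER-resident partner of BiP, differed by 0.22 (-0.09 to 0.52). ERO1LB (ERO1B, an ER oxidase) and OS9 (a lectin of the degradation machinery) had the largest negative differences at -0.23 (-0.61 to 0.16) and -0.16 (-0.48 to 0.16). The median of the list was -0.0018.

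NRF2 targets were read beside the ATF4 and ER sets on the same arrays. Of 26 tested NRF2 targets, 2 were called higher in ACHN-HOTAIR (0.132% of all probes in that direction). Beside 52.4% of all tested genes, 23 of these targets differed upward and 3 downward. Their median difference was 0.19, beside 0.10 for the 25 further ATF4 targets, -0.01 for the 18 ATF4 target members, -0.02 for the 13 tested members of the IRE1, ATF6, chaperone and degradation lists, and 0.01 for all tested genes. This list was drawn up with earlier results of these arrays known, and no test compared it with the others. AKR1C1, a reductase of this list, rose clearly over background on all 3 HOTAIR arrays but only 2 EV arrays, so it was tested through the group in which it was higher. Without it 22 of 25 genes differed upward and the median was 0.17. The share of its variance between arrays that lay between the groups was 55.4%, against 9.62% for the members and 17.8% for all tested genes. AKR1B10 carried much of it, and without this gene the share was 28.0% and the median 0.17. The probes that stand for TALDO1, FTH1, FTL and TXN are annotated on other chromosomes than these genes, and the median was 0.19 without them. A second FTL probe, on the gene's own chromosome, differed by 0.27, beside 0.26 at the first. No member was read from a probe on another chromosome, and 4 members were read from a probe with no position. The NRF2 median was 0.10 without EV 2 and 0.27 without EV 2 and HOTAIR 3, and it stayed above 0 under all 20 alternatives.

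AKR1B10, a reductase of aldehydes and a standard NRF2 target in human cells, read -1.53, -1.47, -1.14 and -1.18 on the EV arrays and 1.19, 1.35 and 1.29 on the HOTAIR arrays. It was 6.11-fold higher in ACHN-HOTAIR (log2 2.61, SE 0.14, limma adjusted p = 0.000487). SLC7A11, which imports cystine for glutathione and is induced by both ATF4 and NRF2, read -0.01, -0.01, 0.14 and 0.07 against 1.03, 1.13 and 0.96, at chr4:139085433-139085492. It was 1.99-fold higher (log2 0.99, SE 0.10, interval 0.75 to 1.23, limma adjusted p = 0.0205, exact permutation p = 0.0286). The arrays separated by far more than their spread, on EV 2 and HOTAIR 3 as on the others. The SLC7A11 call was kept without EV 2 and lost when any other single array was left out, with adjusted p between 0.0688 and 0.159 and a difference between 0.95 and 1.03. Without EV 2 and HOTAIR 3 together the call was lost as well, at a difference of 1.01 (limma adjusted p = 0.0662).

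HMOX1, heme oxygenase, was chosen after its values were seen and read 3.45, 3.57, 3.61 and 3.91 on the EV arrays and 4.54, 4.50 and 4.34 on the HOTAIR arrays. Its difference of 0.82 (0.50 to 1.14) did not pass the test (limma adjusted p = 0.113), although the groups were well apart. At the other end of the NRF2 list, ABCC3, an exporter of conjugates, and SRXN1, which restores peroxiredoxins, differed by -0.07 (-0.39 to 0.25) and -0.05 (-0.39 to 0.29), and by 0.03 and 0.04 without EV 2.

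**Figure D3:**
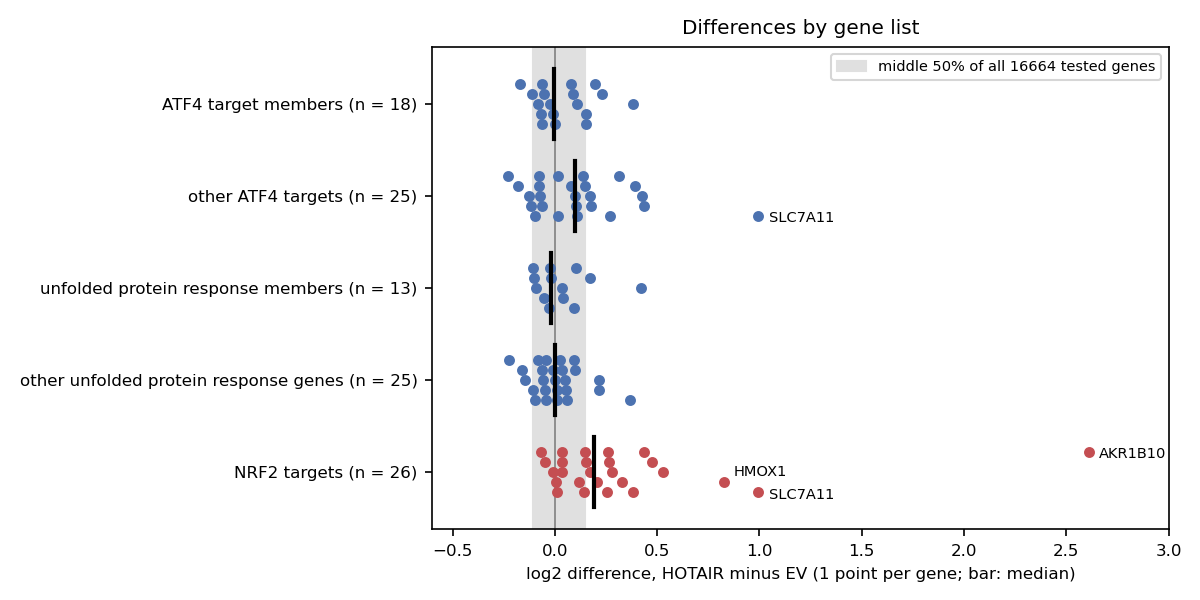
Log2 difference between ACHN-HOTAIR and ACHN-EV for every tested gene of 5 lists, 1 point per gene with the median as a black bar. The grey band holds the middle 50% of all tested genes, from -0.11 to 0.15. Both member lists centre near 0, and the NRF2 list lies to the right with a median of 0.19. SLC7A11 is in the list of other ATF4 targets and in the NRF2 list.

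Most of the variation of the members lay between arrays of the same group. The gap between EV 2 and the mean of the other EV arrays was larger than the difference between the groups for 37 of 41 members (90.2%), beside 73.9% of all tested genes. That gap exceeded 0.5 for 12 members (29.3%), beside 27.8% of all genes. HOTAIR 3 deviated from its group in the same direction as EV 2 for 31 of 41 members (75.6%), beside 72.1% of all genes. The wide gaps and the shared direction were thus about as frequent among the members as among all genes. The widest gaps of EV 2 were at CANX (-1.19), DDIT3 (-1.11), SLC1A5 (-1.07) and SLC7A5 (1.05), so members of the same role went in opposite directions.

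**Figure D4:**
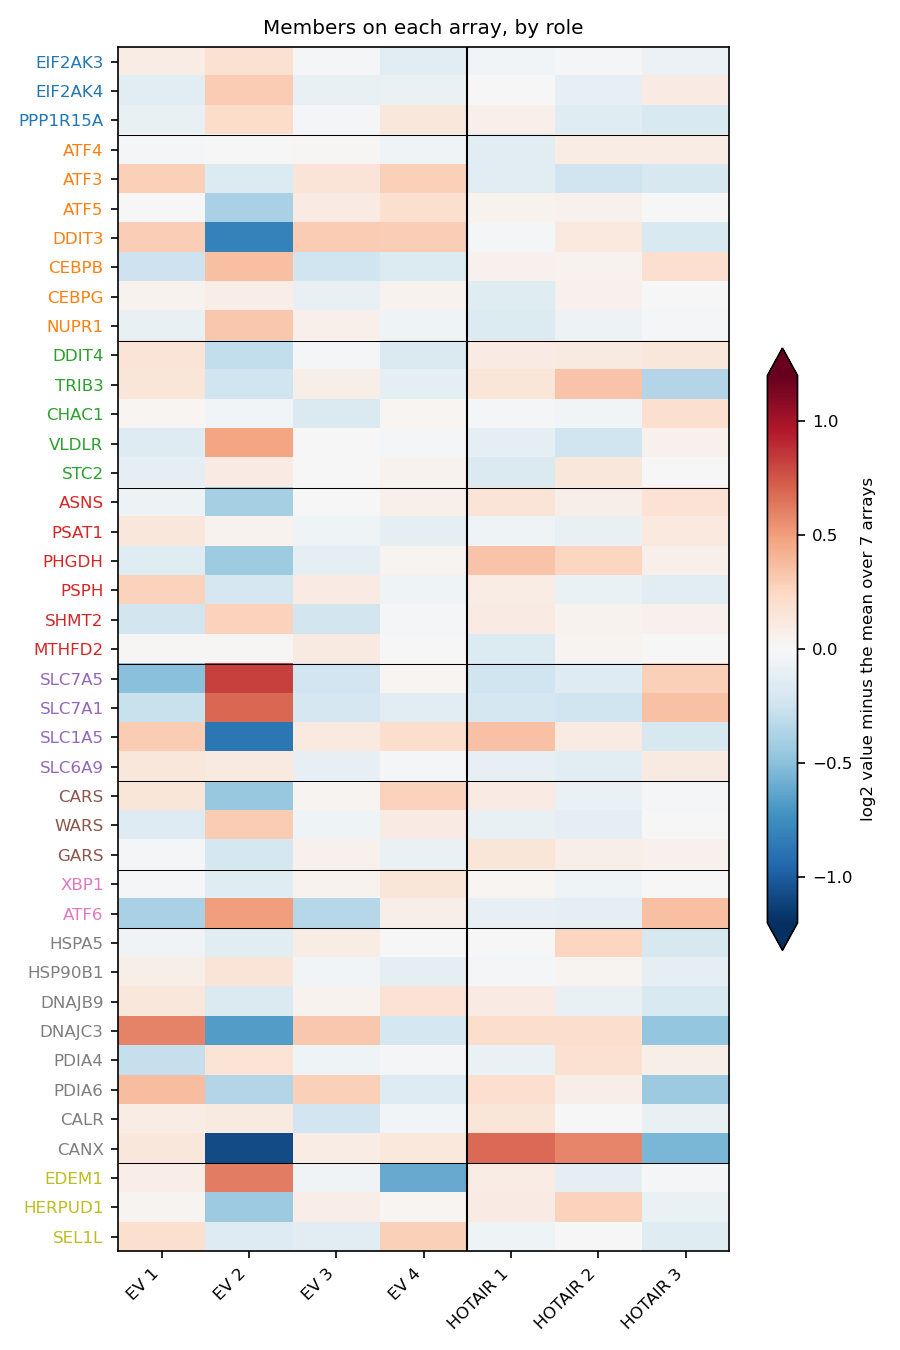
Value of each tested member on each array minus its mean over the 7 arrays, with rows ordered and coloured by role. Red is higher and blue lower on the log2 scale. The strongest colours stand in the EV 2 column, at CANX, DDIT3, SLC1A5, SLC7A5 and SLC7A1, and no role changes colour as a whole between the EV and the HOTAIR columns.

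The medians of the transporter and chaperone lists moved in opposite directions on EV 2 and HOTAIR 3, although not every gene followed its list. SLC1A5 was low on both arrays, and CALR, HSP90B1 and PDIA4 were higher on EV 2 than on the other EV arrays. The transporter list had a median deviation of 0.40 on EV 2 and 0.20 on HOTAIR 3, and between -0.15 and -0.00 on the other arrays. The chaperone list had -0.15 and -0.19 on this pair, and between -0.02 and 0.13 elsewhere. The median over all members lay between -0.00 and 0.03 on every array. Without both arrays the median difference of the IRE1, ATF6, chaperone and degradation members was 0.11, and without HOTAIR 3 alone it was 0.09, in place of -0.02. Without both arrays the median of all members was -0.0029, that of the ATF4 target members 0.0076 and that of the further ATF4 targets 0.05.

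Probes within a gene did not follow this pair of arrays alike. The 5′ probe of CANX was lower on EV 2 by 1.19 and on HOTAIR 3 by 1.18 than on the other arrays of their groups, whereas its 3′ probe deviated by -0.10 and 0.49. The 5′ probe of SEL1L deviated by -0.73 and -0.84, and the probe 6717 bases downstream by -0.27 and -0.12. ATF3 had 4 tested probes, of which the 5′-most deviated by -1.30 on EV 2 and the third by -2.35, against -0.17 and -0.40 at the others. In CANX and SEL1L the 5′ probe was the more affected, and in ATF3 the order along the gene was not monotonic. The part of RNA quality or labelling in these values was not tested. A second probe named HSP90B1 is annotated on chromosome 15 and the gene's brightest probe on chromosome 12. It read 1.91, 2.21, 1.88 and 1.89 on the EV arrays and 1.72, 1.56 and 1.74 on the HOTAIR arrays, with no overlap between the groups. The difference was -0.30 (-0.59 to -0.01, exact permutation p = 0.0286, limma adjusted p = 0.834). Averaged over both probes, HSP90B1 differed by -0.18, in place of -0.05.

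**Figure D5:**
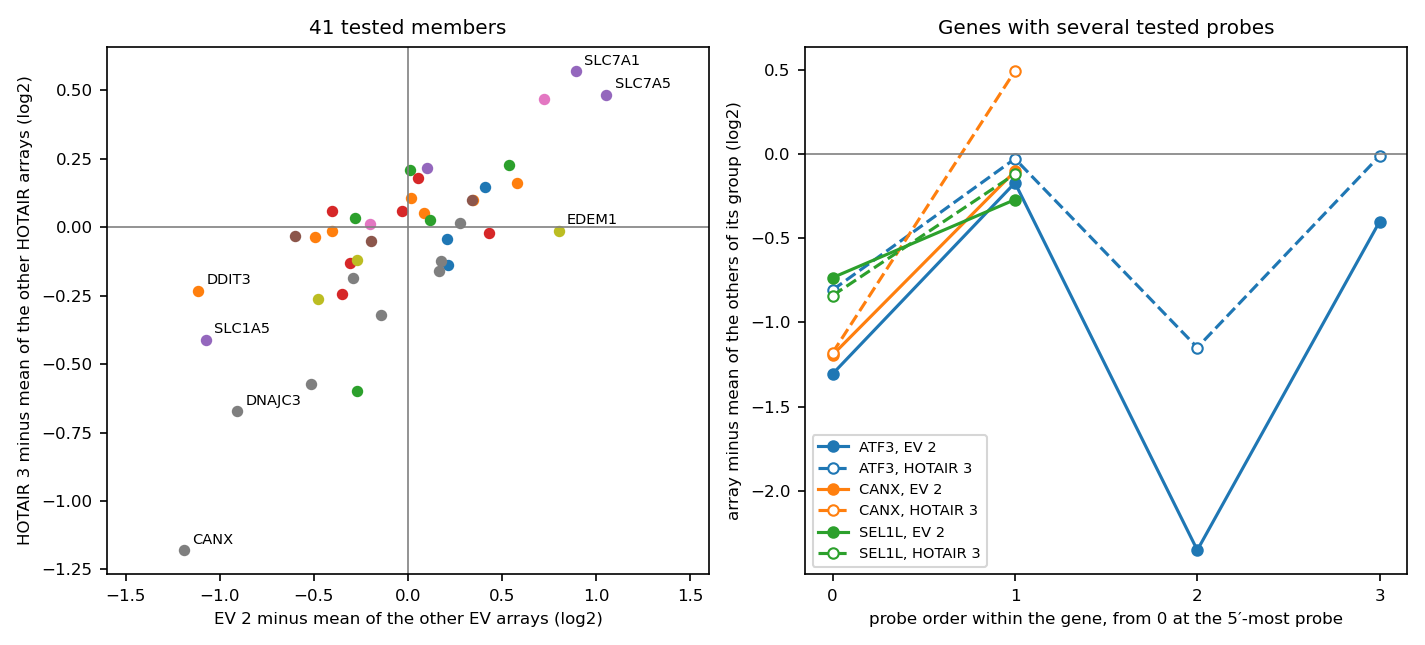
Left, deviation of EV 2 from the other EV arrays against that of HOTAIR 3 from the other HOTAIR arrays for the 41 tested members, on the log2 scale and coloured by role as above. Right, the same deviations for each tested probe of ATF3, CANX and SEL1L in order from the 5′ end, with filled circles for EV 2 and open circles for HOTAIR 3. Of the 41 members, 31 lie in the quadrants of equal sign.

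The promoters of the members were searched for the elements by which these factors are known to act. RefSeq promoter windows on GRCh38.p14, from 250 bases before to 50 after a start, were found for 39 of the 42 members, and NUPR1, PSPH and SHMT2 had no entry. The ATF4 element was searched as TGATGNAA or TGATGNNAT, and the ER stress element of ATF6 as CCAAT and CCACG with 9 bases of any kind between them, each on both strands. The first pair of spellings overlap in GARS, where 1 stretch matches both. The sequences below show these letters at 8 well-known targets of the factors among the members that held a match, with the match in capitals, read 5′ to 3′ in the direction of the gene.
ASNS (ATF4 element, chr7:97872449-97872496, minus strand): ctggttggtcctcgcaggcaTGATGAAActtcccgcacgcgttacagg
CHAC1 (ATF4 element, reverse complement, chr15:40953242-40953289, plus strand): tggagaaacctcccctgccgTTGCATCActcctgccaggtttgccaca
ATF3 (ATF4 element, chr1:212565196-212565243, plus strand): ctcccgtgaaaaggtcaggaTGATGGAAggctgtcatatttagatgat
HERPUD1 (ATF4 element, reverse complement, chr16:56931946-56931993, plus strand): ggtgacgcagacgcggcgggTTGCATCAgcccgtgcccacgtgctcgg
HSPA5 (ER stress element, chr9:125241371-125241429, minus strand): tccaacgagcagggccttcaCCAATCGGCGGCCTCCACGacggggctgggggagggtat
XBP1 (ER stress element, chr22:28800583-28800641, minus strand): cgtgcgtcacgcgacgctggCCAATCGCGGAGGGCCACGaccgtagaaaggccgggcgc
HSP90B1 (ER stress element, chr12:103930196-103930254, plus strand): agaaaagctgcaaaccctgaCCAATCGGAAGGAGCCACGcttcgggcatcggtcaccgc
CALR (ER stress element, reverse complement, chr19:12938364-12938422, plus strand): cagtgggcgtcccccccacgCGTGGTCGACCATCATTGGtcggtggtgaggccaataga

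The ER stress element was rare in general and common in the chaperones. It was found in 6 of the 39 members (15.4%), namely XBP1, HSPA5, HSP90B1, PDIA6, CALR and CANX, and in 5 of the 8 chaperones, beside 25 of 27305 genes of the table (0.0916%). The ATF4 element was found in 9 members (23.1%), beside 7.17% of all genes, and 8 of them were among the 25 members of the eIF2α and ATF4 branch that have a window. The windows of ATF4 and DDIT3 did not hold these letters. Of 19 further ATF4 targets with a window, 9 held it (47.4%). The XBP1 element TGACGTGG was found in 1 member, CARS, beside 0.927% of all genes. The NRF2 element TGACNNNGC was found in 15 members (38.5%), in 6 of 18 NRF2 targets with a window (33.3%) and in 16.1% of all genes. The lists were made of genes known to respond to these factors, so a match describes the members and is not a test. SLC7A11, HMOX1 and AKR1B10 had no entry.

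The differences of the members with an element ran in both directions. Of those with an ATF4 element, ASNS, GARS, SLC1A5, HERPUD1 and CHAC1 differed by 0.23, 0.15, 0.15, 0.17 and 0.09, and SLC7A1, CEBPG, ATF3 and CARS by -0.06, -0.05, -0.33 and less than 0.01. The directions of SLC1A5 and SLC7A1 rested on EV 2, without which they differed by -0.12 and 0.17. HERPUD1 differed by 0.05 without that array. Of the members with an ER stress element, CANX, HSPA5 and CALR differed by 0.42, 0.04 and 0.04 and PDIA6, HSP90B1 and XBP1 by -0.09, -0.05 and -0.02. None of these differences passed the test.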

How the data were processed

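Total RNA of the 7 samples was labelled with Cy3 and hybridised to single-colour arrays, 1 sample each. The authors extracted the images with Agilent Feature Extraction 10.7.3.1 and deposited, for each array, the processed intensity of every spot (background subtracted by the software) and its outlier, saturation and background calls. The table of intensity values that the authors deposited for the series matched these within 1% in all 440783 cells and was used as an alternative. Probe positions are on hg19. Methods name a log scale, the rank product and the Mann-Whitney U test.

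With R 4.3.3 and limma 3.58.1, log2 intensities were taken, each array's 75th percentile over 58717 non-control spots was subtracted, outlier spots (408 to 600 per array) were left out and spots of a probe averaged. Between 48.7% and 52.1% of probes were well above background on an array, and the number of arrays limits the precision. A probe was tested if all arrays of either group put it well above background, by lmFit and eBayes, and p-values were adjusted by the method of Benjamini and Hochberg over 20419 probes. The brightest tested probe stands for a gene and was chosen anew when arrays were left out. The fit was tested on simulated arrays. Members and lists were chosen with earlier results of these data known. Named with values on every array were members with an unadjusted p under 0.05, the largest differences of each list and standard readouts. SLC7A5, SLC7A1 and EIF2AK4 were added after their values were seen. Other members are summarised, and some marker genes are not reported here. The rank product was computed for rank only, over 12 pairs of arrays, and placed PHGDH at 1670 and SLC7A11 at 106 of the probes ordered from the highest. Old symbols were updated through the RefSeq table of GRCh38.p14, which gives WARS1, GARS1 and CARS1. Alternatives were other background corrections, scalings, filters, moderation, tests, arrays left out, a replicate block and, chosen after seeing the data, array weights.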

Additional observations from a re-analysis of the deposited data

Results flagged for a closer look

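Dixon's test at the 95% level was run on the 4 EV arrays for 41 members, 18 other named genes and 5 list levels. Chance marks about 1 in 20 such groups, and the 64 groups share the same arrays. It marked 8 members, and 7 of these on EV 2. Dixon's test was not run over all tested genes, so this count does not set the members apart. The gap between EV 2 and the mean of the other EV arrays exceeded 0.5 for 29.3% of members and 27.8% of all tested genes. EV 2 was high for EIF2AK4 (2.15, others 1.71 to 1.77), CEBPB (2.72, others 2.11 to 2.19) and SLC7A1 (2.01, others 1.05 to 1.19). It was low for DDIT3 (-0.87, others 0.24 to 0.25), SLC1A5 (-0.68, others 0.29 to 0.49), CANX (-0.31, others 0.86 to 0.90) and HERPUD1 (4.21, others 4.67 to 4.73). The remaining member was MTHFD2, which was high on EV 3 by a small margin (3.43, others 3.33 to 3.34). Among the other named genes, EV 2 was high for ABCC3 (2.41) and low for PCK2 (-2.54), EIF2B5 (-0.83) and EIF2AK2 (2.14). The median level of the eIF2α and ATF4 members was 0.0269 on EV 2 against -0.0078 to -0.0050 on the other EV arrays. HOTAIR has 3 arrays and was not tested in this way.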

How the results depend on the processing

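No member was called under the 19 alternatives that called at least 1 probe, and the Mann-Whitney U test, raw or adjusted, and the replicate block called 0 probes of any gene. Over 41 members and 20 alternatives, 79 of 820 differences changed sign, and 1 moved by more than the spread between arrays (HSP90B1, -0.18 as the mean of its probes). The count of called probes was 34, and it was 12 with normexp correction, 14 without a filter on dim probes, 20 with trend and robust moderation, 22 when all arrays had to be well above background, 95 with the within-group axis as a covariate, 324 with array weights (chosen after seeing the data) and 0 by the Mann-Whitney U test, raw or adjusted. It was between 9 and 30 with 1 array left out. The median of all members was -0.02, and it was 0.0042 with the percentile over detected probes, 0.0114 with array weights, 0.0255 in the unscaled table, -0.0438 with quantile normalization and -0.0136 to 0.0196 with 1 array left out. That of the ATF4 target members was -0.01, and in the same order 0.0157, 0.0329, 0.0366 and -0.0476, with -0.0270 under normexp and -0.0086 to 0.0391 with 1 array left out. The median of the unfolded protein response members was -0.0341 to 0.0899 and that of NRF2 targets 0.10 to 0.24 with 1 array left out, and 0.11 and 0.27 without EV 2 and HOTAIR 3. Same-numbered arrays deviated with correlations of 0.39, -0.37 and -0.41. EV 2 and HOTAIR 3 dominate these deviations, so the correlations cannot tell whether the numbers pair the samples, and the labels do not say. With the replicate number as a block, 0 probes were called, 1 member had an unadjusted p under 0.05 and the ATF4 target median was 0.0192. EV 4 had no partner in that block, so this median equals the one without EV 4. HMOX1 was called with array weights (adjusted p = 0.00518). SLC7A11 kept its call in 10 of 20 alternatives, with differences of 0.93 to 1.04. The causes were not tested. Brightness limits ERN1, which had no array well above background.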

Other observations

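SLC7A3, a cationic amino acid transporter listed among further ATF4 targets, was well above background on HOTAIR 1 (-4.10) and on no other array (-7.59 to -6.76), and it was not tested.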
